A study of Rattus norvegicus with 8 samples.

Results

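The identity genes of Kupffer cells and the complement genes C1qa, C1qb and C1qc were examined in immune cells of rat liver, in 8 single-cell libraries. The set holds 9 of the 32754 genes of the deposited tables, chosen by symbol: Clec4f, Cd5l, Vsig4, Marco, Timd4 and Cd163 as 6 identity genes, and the 3 C1q genes. Each symbol matched exactly 1 gene. The study asked whether cells stored frozen in DMSO give the same profiles as fresh cells, and the data also allow the 2 diets to be compared.

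Immune cells came from the livers of 4 male Han Wistar rats. The livers were pushed through filters, and the cells were taken from a density gradient (Lymphocyte Separation Medium). Animals NC1 and NC2 received the CSAA diet, which is choline-sufficient and l-amino acid-defined. Animals PC1 and PC2 received the CDAA diet, its choline-deficient counterpart, a model of fatty liver disease. The age of the animals and the duration of the diets are not given in the sources used here. From each animal, 1 library was made of fresh cells and 1 of cells that had been DMSO cryopreserved for 3 weeks. Every diet is thus represented by 2 animals, and the fresh and DMSO comparisons of the diets share their animals. Preservation and the day on which a library was processed cannot be told apart.

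The libraries held between 18338700 and 26471843 unique molecular identifiers (UMIs), each standing for 1 captured transcript. Barcodes with at least 500 UMIs were taken as cells, 34053 in all, 18129 from fresh and 15924 from DMSO libraries. There were 3673 to 4771 cells per library, with a median of 3339 to 4309 UMIs per cell. Any pair of libraries shared 13 to 36 barcodes, and 651 barcodes occurred in more than 1 library. In animal PC2, Clec4f, Cd5l, Vsig4 and Cd163 were lower after preservation, whereas they were higher in each of the other 3 animals, and the calls without PC2 are given beside the comparisons.

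Kupffer cells are the resident macrophages of the liver sinusoids, which take up particles, aged erythrocytes and bacteria from portal blood. Clec4f is a C-type lectin receptor and the most restricted marker of rodent Kupffer cells. Vsig4 (also called CRIg) is a receptor for complement C3 fragments, Marco a scavenger receptor, Timd4 a receptor for phosphatidylserine on dying cells, and Cd163 the receptor for haptoglobin and hemoglobin. Cd5l, also known as AIM, is a protein secreted by tissue macrophages. C1qa, C1qb and C1qc encode the chains of C1q, the recognition molecule that starts the classical complement pathway, which macrophages rather than hepatocytes produce.

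C1qb, C1qc and C1qa stand next to each other on chromosome 5, with 0 other genes between them in the RefSeq annotation. The promoters of C1qa and C1qb are shown because the C1q genes were detected together in single cells, and that of Clec4f because it was lower with the CDAA diet within Kupffer-like cells. The sequences are the 250 bases before the annotated start, 5′ to 3′ on the strand of the gene, from RefSeq on the assembly GRCr8. That assembly is not the one on which the UMIs were counted. Capitals mark matches, on either strand, to TGCTGA, the half-site of MAF factors (TCAGCA on the other strand), and to GAGGAA, the core of PU.1 (TTCCTC on the other strand). MAF factors and PU.1 act in macrophages.
C1qa, chr5:154419934-154420183, minus strand: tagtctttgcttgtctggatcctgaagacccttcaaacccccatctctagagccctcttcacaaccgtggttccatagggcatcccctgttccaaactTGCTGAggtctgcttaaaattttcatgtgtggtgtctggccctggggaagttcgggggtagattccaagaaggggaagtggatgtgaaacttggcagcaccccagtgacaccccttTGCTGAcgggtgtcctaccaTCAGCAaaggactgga
C1qb, chr5:154407828-154408077, minus strand: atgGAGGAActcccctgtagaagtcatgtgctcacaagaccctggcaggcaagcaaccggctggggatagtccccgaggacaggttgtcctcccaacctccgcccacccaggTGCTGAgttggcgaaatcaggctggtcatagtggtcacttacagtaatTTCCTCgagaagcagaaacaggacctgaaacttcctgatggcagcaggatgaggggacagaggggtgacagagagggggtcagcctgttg
Clec4f, chr4:117696408-117696657, minus strand: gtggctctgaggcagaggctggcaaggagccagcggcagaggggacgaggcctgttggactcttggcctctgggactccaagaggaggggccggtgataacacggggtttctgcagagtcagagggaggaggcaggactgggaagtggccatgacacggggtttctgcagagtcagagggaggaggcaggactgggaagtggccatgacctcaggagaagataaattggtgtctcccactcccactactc

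The C1qa window held 3 matches to TGCTGA, whose leftmost bases lie 152, 36 and 16 bases before the start, and none to GAGGAA. The C1qb window held 1 match to TGCTGA, at 138 bases, and 2 to GAGGAA, at 247 and 90 bases. The Clec4f window held neither. Among 33469 RefSeq promoters of this length, 5067 (15.1%) held TGCTGA and 7812 (23.3%) held GAGGAA. A match is a description of letters, not a binding site. The RefSeq promoter of C1qc was not used here.

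The cells were clustered without the 9 genes, so that their levels could be described across clusters, and 22 clusters were obtained. The clusters were named from marker lists that contain none of the 9 genes. One cluster was Kupffer-like, in which 12 of the 14 Kupffer cell markers passed (2-fold over all remaining cells and detected in 10% of the cluster). Over all libraries together, Slc40a1, the iron exporter, and Apoe, which carries lipids, led this cluster. Hpgd was the only one of its markers at 0. It also carried Mmp12 and Spp1 among its leading genes. The Kupffer-like cluster held 621 cells, and its share of the cells was 0.838% and 1.49% in the fresh CSAA libraries (NC1, NC2) and 2.38% and 2.44% in the fresh CDAA libraries (PC1, PC2). After preservation it was 0.953% and 1.31% against 3.08% and 2.03%. These shares are given as a description, without a test.

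Kupffer-like cells were large in terms of transcripts. Their median was 5302.5 to 7788 UMIs per cell in the 4 CSAA libraries and 13603 to 15753.5 in the 4 CDAA libraries, against 3330 to 4271 in the remaining cells. High UMI counts can come from doublets, and no doublet caller was run. Levels are given in CPM, a gene's UMIs per 1000000 UMIs of the same cells. In Kupffer-like cells the 8 T cell markers summed to 534 to 700 CPM in the CSAA and 288 to 525 in the CDAA libraries, with Tcf7 at 0, against 633 to 1429 CPM in all cells. The 8 NK cell markers reached 1301 to 3865 CPM, against 2921 to 8242 in all cells, and the 7 B cell markers 27.4 to 183, against 121 to 376. The 7 monocyte markers were at 2228 to 3731 CPM in the CSAA and at 5649 to 10312 in the CDAA libraries, with Ccr2 at 0. In all cells they were at 5112 to 11127 CPM. The 14 Kupffer cell markers were at 4030 to 5040 CPM in the CSAA and at 2537 to 3111 in the CDAA libraries, but at 315 to 683 in all cells. The pDC markers were at 1546 to 2458 CPM in the CSAA and at 1085 to 1285 in the CDAA libraries (1688 to 3142 in all cells). Markers of Fcgr3a-type myeloid cells were at 1664 to 1858 against 1128 to 1330 (761 to 1369 in all cells). The 6 markers of cycling cells were at 107 to 203 against 258 to 565 (193 to 505 in all cells). These 6 of the 14 lists (Kupffer, monocyte, T, pDC, Fcgr3a-type and cycling) separated the 4 CDAA from the 4 CSAA libraries within Kupffer-like cells. Neutrophil markers separated the diets within fresh libraries (97.7 to 154 CPM with CSAA against 206 to 250) and within DMSO libraries (48.2 to 74.6 against 111 to 159). The part of all these lists in the diet results was not tested. Among the leading genes, Apoe was at 50.2 to 308 CPM in the CSAA and at 4030 to 5994 in the CDAA libraries. Slc40a1 was at 805 to 955 against 100 to 242, and Spp1 at 0 to 9.43 against 901 to 2816. Whether the cluster holds the same kinds of cells in both diets was not tested. Hepatocyte markers reached at most 66.2 CPM and stellate cell markers at most 2.64 CPM, with Col1a1 and Dcn at 0.

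A second cluster with C1q carried no name. It held 229 cells, of which all but 3 came from CSAA libraries, with 55 and 41 cells in NC1 and NC2 fresh and 84 and 46 in NC1 and NC2 DMSO. It passed for 4 Kupffer cell and 4 monocyte markers, and the chemokine genes Cxcl1, Cxcl2 and Ccl24 led it. This cluster is called the unnamed C1q cluster here.

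All 3 C1q genes were highest in the Kupffer-like cluster and next highest in the unnamed C1q cluster. Summed over the 3 genes and all libraries, C1q reached 11169.5 CPM in Kupffer-like cells, with libraries between 9121 and 20830.5. The unnamed C1q cluster followed with 2057 CPM and libraries between 1423 and 3621, so the ranges of these 2 clusters did not overlap. Next was a monocyte-like cluster with 637 CPM. Relative to B-like cells of the same library, which should lack it, the level was 42.0-fold in Kupffer-like cells and 9.29-fold in the unnamed C1q cluster (medians over libraries). In the other 18 clusters that had at least 20 cells in a library the median ratio was 0.913 to 1.27, and single libraries reached 0.775 to 1.53. Above the B-like level in every library with at least 20 cells were an unnamed cluster led by mitochondrial transcripts (8 of 8 libraries, 1.19 to 1.53), the monocyte-like cluster (4 of 4, 1.01 to 1.29) and the mast or basophil-like cluster (1 of 1, 1.26).

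**Figure D1:**
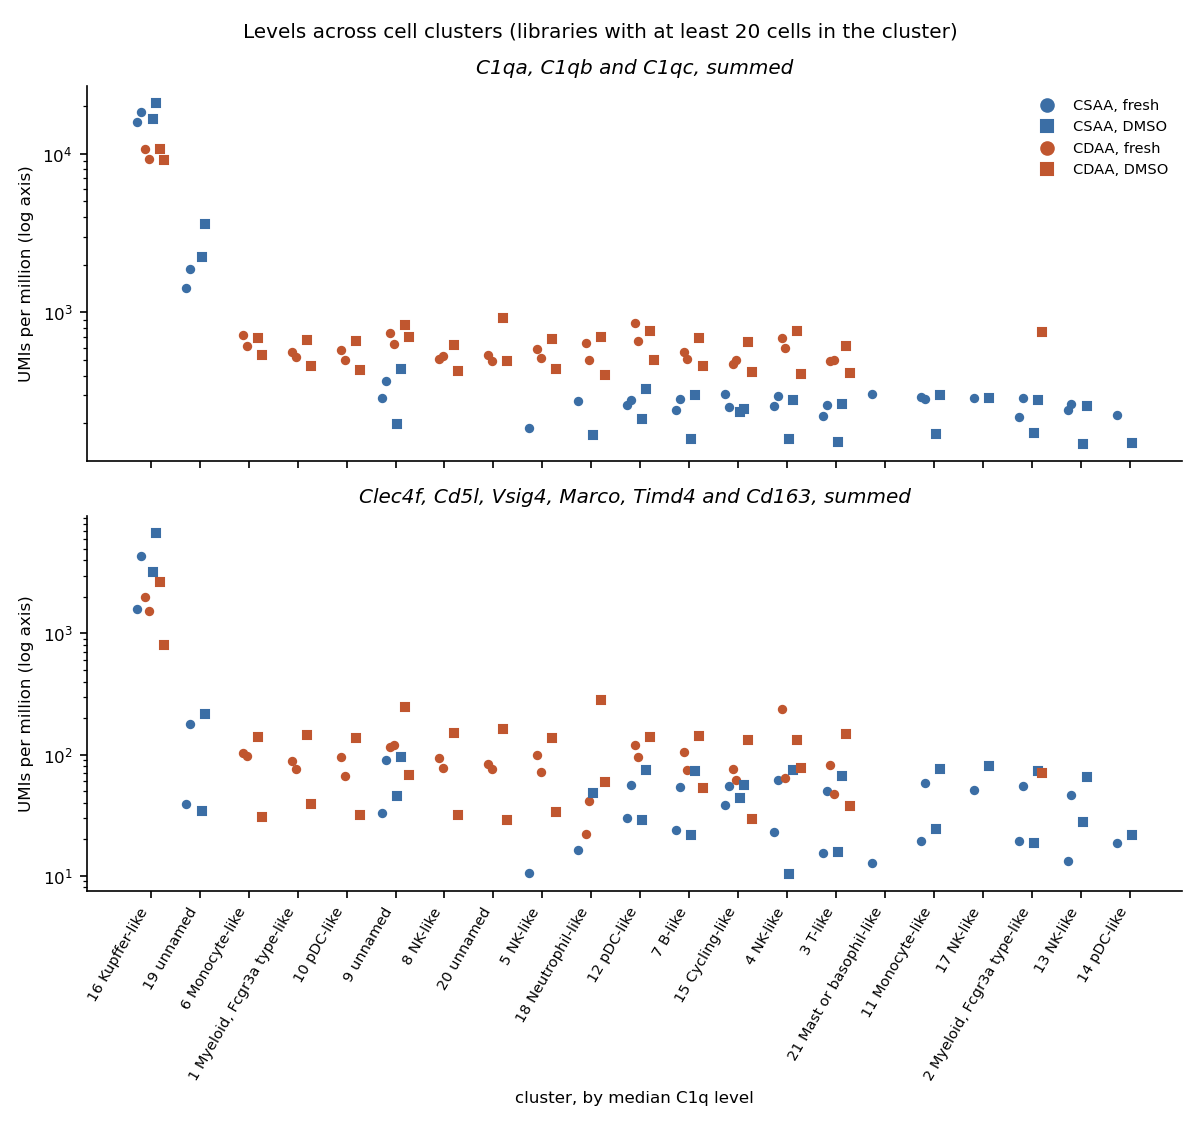
CPM (log axis) of the summed C1q genes (top) and the summed identity genes (bottom) in each cluster, ordered by the median C1q level. Each point is 1 library with at least 20 cells in the cluster, coloured by diet and shaped by preservation, and libraries at 0 are not drawn. Kupffer-like cells stand above every other cluster in both panels, and the unnamed C1q cluster stands apart in the C1q panel. In the identity panel the latter is at 39.0 and 34.1 CPM in NC1 fresh and DMSO. In NC2 it is at 177 and 216, above the other clusters of these libraries except the Kupffer-like one (at most 90.9 and 95.7).

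Of the identity genes, Clec4f, Cd5l, Vsig4 and Cd163 were highest in the Kupffer-like cluster and Timd4 in the unnamed C1q cluster. Marco was highest in the Kupffer-like cluster through 1 library. Clec4f reached 560.8 CPM in Kupffer-like cells and, summed over libraries, at most 30.1 in another cluster. This was a pDC-like cluster with 471 and 597 of its 1332 cells from NC2 fresh and NC2 DMSO, and its median ratio to B-like cells of the same library was 1.02. Cd5l reached 1218 CPM against at most 64.5 in another cluster, and Vsig4 303 against 39.0 in the unnamed C1q cluster. In the unnamed C1q cluster the ratio to B-like cells was 1.12 for Clec4f and 1.21 for Cd5l, but 6.65 for Vsig4 (medians over 4 libraries). Single libraries ran from 0.954 to 1.17 for Clec4f, from 0.954 to 1.73 for Cd5l and from 0 to 12.3 for Vsig4. By the medians, C1q and Vsig4 lay well above the B-like level in this cluster, and Clec4f and Cd5l only slightly above it. Cd163 was at 43.7 CPM in Kupffer-like cells and at 3.16 in the unnamed C1q cluster.

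Marco and Timd4 were close to the limit of detection, with 207 and 111 UMIs over all 34053 cells. Most Marco transcripts came from 2 libraries. PC2 fresh held 115 Marco UMIs, 56 of them in a single cell and 65 in monocyte-like cells. NC1 DMSO held 62, of which 46 lay in 4 Kupffer-like cells, while the fresh library of the same animal held 2. The other 5 libraries held 0 to 13 Marco UMIs each. Timd4 was found in 97 cells, with 7 to 22 UMIs per library, and its 20 UMIs in the unnamed C1q cluster correspond to 10.5 CPM against 3.56 in Kupffer-like cells.

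The C1q genes were detected far beyond the cells that carry them at a high level. At least 1 UMI of C1qa, C1qb or C1qc was found in 46.5 to 88.4% of all cells per library, and in 31.3 to 89.0% of B-like cells. When every cell was thinned to 500 UMIs, the shares were 10.1 to 31.2% of all cells and 8.01 to 30.4% of B-like cells. The median depth was 3339 to 4309 UMIs in all cells and 2335 to 3247.5 in B-like cells. A share of C1q positive cells in this range is at the background level and was not read as expression. Barcodes with 1 to 100 UMIs, which hold free RNA, carried C1q at 370 to 1389 CPM, and the level in B-like cells was 0.338 to 0.495 times that. For the identity genes, 1.47 to 8.66% of all cells and 1.30 to 7.28% of B-like cells were positive at 500 UMIs.

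The number of C1q UMIs per cell separated the populations more clearly than the share of positive cells. The median was 127 C1q UMIs in Kupffer-like cells (0 to 841), 10 in the unnamed C1q cluster and 1 in B-like cells. Of 632 cells with at least 20 C1q UMIs, 518 were Kupffer-like, 61 belonged to the unnamed C1q cluster and 53 to other clusters. Of 513 cells with at least 40, 463 were Kupffer-like. Kupffer-like cells, 0.838 to 3.08% of the cells of a library, held 45.9 to 59.2% of its C1q UMIs and 57.4 to 66.4% of its Clec4f UMIs.

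The proportion of C1qa among the C1q UMIs differed more between libraries than between all cells and Kupffer-like cells of the same library. C1qa made up 36.1% of the C1q UMIs in all cells of NC1 fresh, 35.6% in its Kupffer-like cells, 35.3% in its B-like cells and 35.2% in its free RNA. In NC2 fresh these values were 38.9%, 39.2%, 38.2% and 38.8%. In the CDAA libraries C1qa made up 30.7 to 31.4% in all cells and 29.9 to 30.7% in Kupffer-like cells. The values lay further apart in CDAA B-like cells, where they ran from 30.04 to 38.5%, and in free RNA of NC1 DMSO, with 31.0% against 36.7% in its Kupffer-like cells. For C1qb and C1qc the difference within NC1 DMSO was nearly as wide as that between libraries, with C1qb at 39.0% in all cells and 32.8% in Kupffer-like cells and C1qc at 26.0% and 30.5%, while all cells of the 8 libraries ran from 33.1 to 39.7% and from 26.0 to 31.4%. The B-like values rest on 119 to 779 C1q UMIs per library. Clec4f per 100 C1q UMIs also differed between animals, with 6.14 in Kupffer-like cells and 5.66 in free RNA of NC1 fresh, 10.2 and 11.2 in NC2 fresh, 3.21 and 4.28 in PC1 fresh and 3.96 and 3.92 in PC2 fresh. In PC2 DMSO it was 1.45 in Kupffer-like cells and 2.77 in free RNA.

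Single Kupffer-like cells mostly carried all C1q chains and a variable set of identity genes. All 3 C1q genes were detected in 584 of the 621 Kupffer-like cells (94.0%), at least 2 identity genes in 374 (60.2%) and at least 3 in 200 (32.2%). The median Kupffer-like cell carried 5 of the 9 genes, 14 cells carried 8, and 4 cells carried none. In the unnamed C1q cluster all 3 C1q genes were found in 140 of 229 cells (61.1%) and at least 2 identity genes in 23 (10.0%). In B-like cells these shares were 6.38% and 2.02%. These shares were not thinned, and the median depth was 10978 UMIs in Kupffer-like cells, 6881 in the unnamed C1q cluster and 2717 in B-like cells. In them the unnamed C1q cluster lay between both for C1q and nearer to B-like cells for the identity genes. Thinned to 500 UMIs, at least 1 C1q UMI was found in 89.9% of Kupffer-like cells, 53.8% of the unnamed C1q cluster and 17.8% of B-like cells.

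Co-expression was described in Kupffer-like cells thinned to 2000 UMIs, which left out 68 shallower cells. Cells with Clec4f carried the other frequent identity genes more often than cells without it. Cd5l was found in 85.2% of Clec4f positive and in 36.4% of Clec4f negative cells (medians over libraries), higher among the positive cells in 8 of 8 libraries. Vsig4 was found in 43.8% and 7.39%, and Cd163 in 17.6% and 2.21%, again higher in 8 of 8 libraries for both genes. The libraries differed widely. Vsig4 ran from 0.695 to 62.7% of Clec4f positive and from 0.0486 to 16.5% of Clec4f negative cells. Cd5l ran from 45.4 to 89.5% and from 2.12 to 63.1%. Of Cd163 positive cells, 98.4% carried Cd5l and 81.5% carried Clec4f, against 59.4% and 47.2% of Cd163 negative cells. These values rest on few cells, since Cd163 was found in 2.29 to 29.3% of the 29 to 121 Kupffer-like cells of a library that reached 2000 UMIs. Cells without Clec4f still carried C1q: C1qa was found in 87.0%, C1qb in 87.6% and C1qc in 87.5% of them, against 99.6%, 99.5% and 99.3% of Clec4f positive cells. Over libraries, C1qa ran from 68.3 to 98.8% of the Clec4f negative cells. Cells are not replicates, so these shares are a description without a test.

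**Figure D2:**
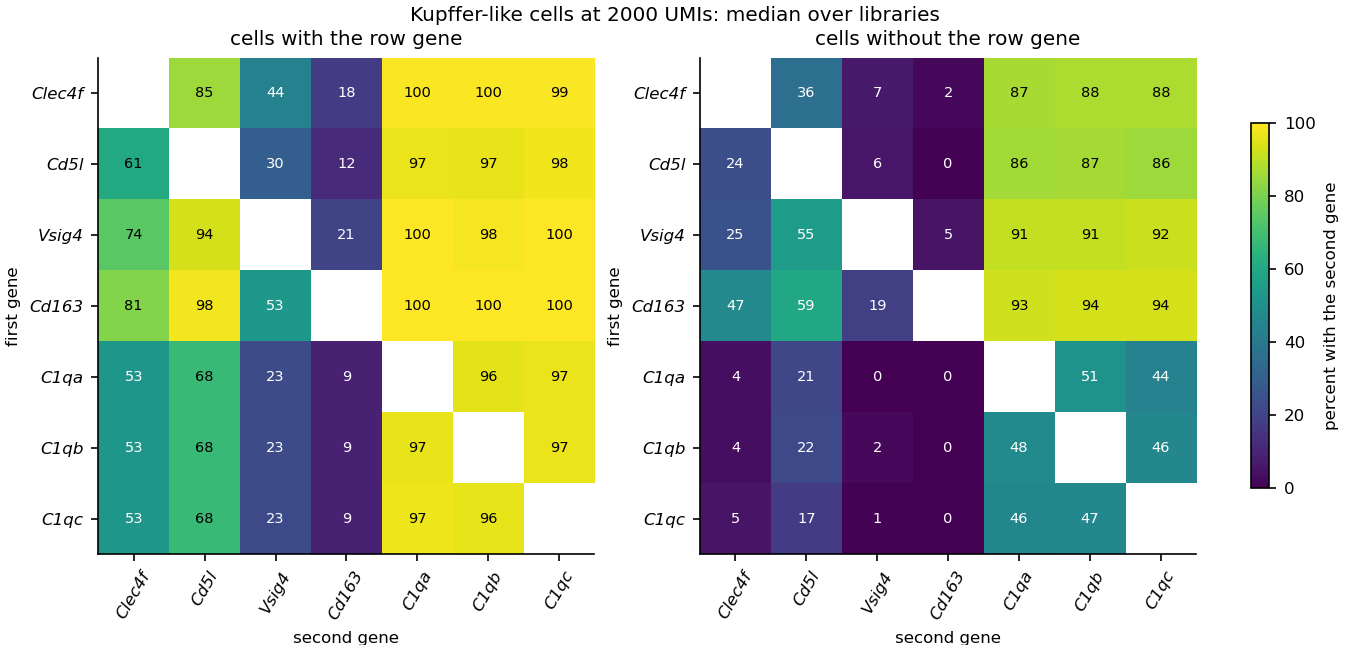
Percent of Kupffer-like cells, each thinned to 2000 UMIs, that carry the second gene (columns) among cells with (left) and without (right) the first gene (rows), as the median over libraries. Marco and Timd4 are left out as too sparse; in the Clec4f row the C1q columns are at 87.0% or more in both panels, whereas the Cd5l and Vsig4 columns drop in cells without Clec4f, from 85.2 to 36.4% and from 43.8 to 7.39%.

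The undivided libraries were compared next, first for preservation. Levels over all cells are CPM of the library. In fresh libraries Clec4f was at 24.8 and 57.5 CPM for NC1 and NC2 and at 36.9 and 45.3 CPM for PC1 and PC2, and in the DMSO libraries of the same animals at 29.3, 86.2, 57.2 and 13.2 CPM. It was thus 1.18 to 1.55 times as high after preservation in 3 animals and 0.291 times as high in PC2. Vsig4 was at 1.58 fresh and 4.14 DMSO in NC1, at 19.6 and 30.6 for NC2, at 30.1 and 73.2 for PC1, but at 23.0 and 6.57 for PC2. The summed C1q genes differed less, by 0.845 to 1.24 times in each animal. The CSAA animals had 505 and 649 CPM fresh and 457 and 723 after preservation, and the CDAA animals 1227 and 1214 fresh and 1520 and 1026 after it.

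None of the 9 genes was called between DMSO and fresh libraries, where a call needs an adjusted p under 0.05 and at least a 2-fold change, while 0.847% of 12163 genes were called (36 higher and 67 lower). At an unadjusted p under 0.05 there were 3169 genes and none of the 9. Log2 fold changes were 0.04 ± 0.34 (approximate SE, derived from the test statistic) for Clec4f, 0.24 ± 0.23 for Cd5l, 0.39 ± 0.44 for Vsig4 and 0.45 ± 0.33 for Cd163. Those of the C1q genes were 0.08 ± 0.10 for C1qa, 0.06 ± 0.09 for C1qb and 0.09 ± 0.10 for C1qc (adjusted p from 0.633 to 0.692 for these 3, edgeR). They lay closer to 0 than those of Cd5l, Vsig4 and Cd163, but not than that of Clec4f. The standard errors of the identity genes are wider than those of C1q by more than 2-fold. Scaled per cell (library size set to the number of cells), an alternative chosen after seeing the data, 31 genes were called higher and 98 lower, again none of the 9. Without PC2, Vsig4 was called higher after preservation, at a log2 fold change of 1.11, among 25 higher and 29 lower of all genes. PC2 is the animal in which Vsig4 fell, so this call follows from the choice of the animal left out. Over the 4 fits without 1 animal, Vsig4 ran from −0.10 to 1.11.

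The share of C1q positive cells at 500 UMIs was 19.9% in fresh and 19.6% in DMSO libraries (means of 4 animals). The difference was −0.375 ± 3.32 percentage points (SD over 4 animals), with a higher share in 1 of 4 animals and p = 0.875 (two-sided exact permutation test, adjusted p = 0.875 over the 2 shares). The 16 sign changes of 4 animals cannot give a p under 0.05, so the p does not show an unchanged share. In B-like cells 8.01 to 30.4% were C1q positive and 1.30 to 7.28% identity gene positive at this depth. The shares of all cells lay close to this background and were not read as expression. For identity genes the share was 3.97% in fresh and 4.39% in DMSO libraries. This difference was 0.423 ± 1.84 percentage points, higher in 3 of 4 animals, p = 0.625 (exact permutation test, adjusted p = 0.875). Without thinning the C1q shares were 72.3% and 69.2%, and the identity gene shares ran from 8.36 to 48.3% over the libraries.

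**Figure D3:**
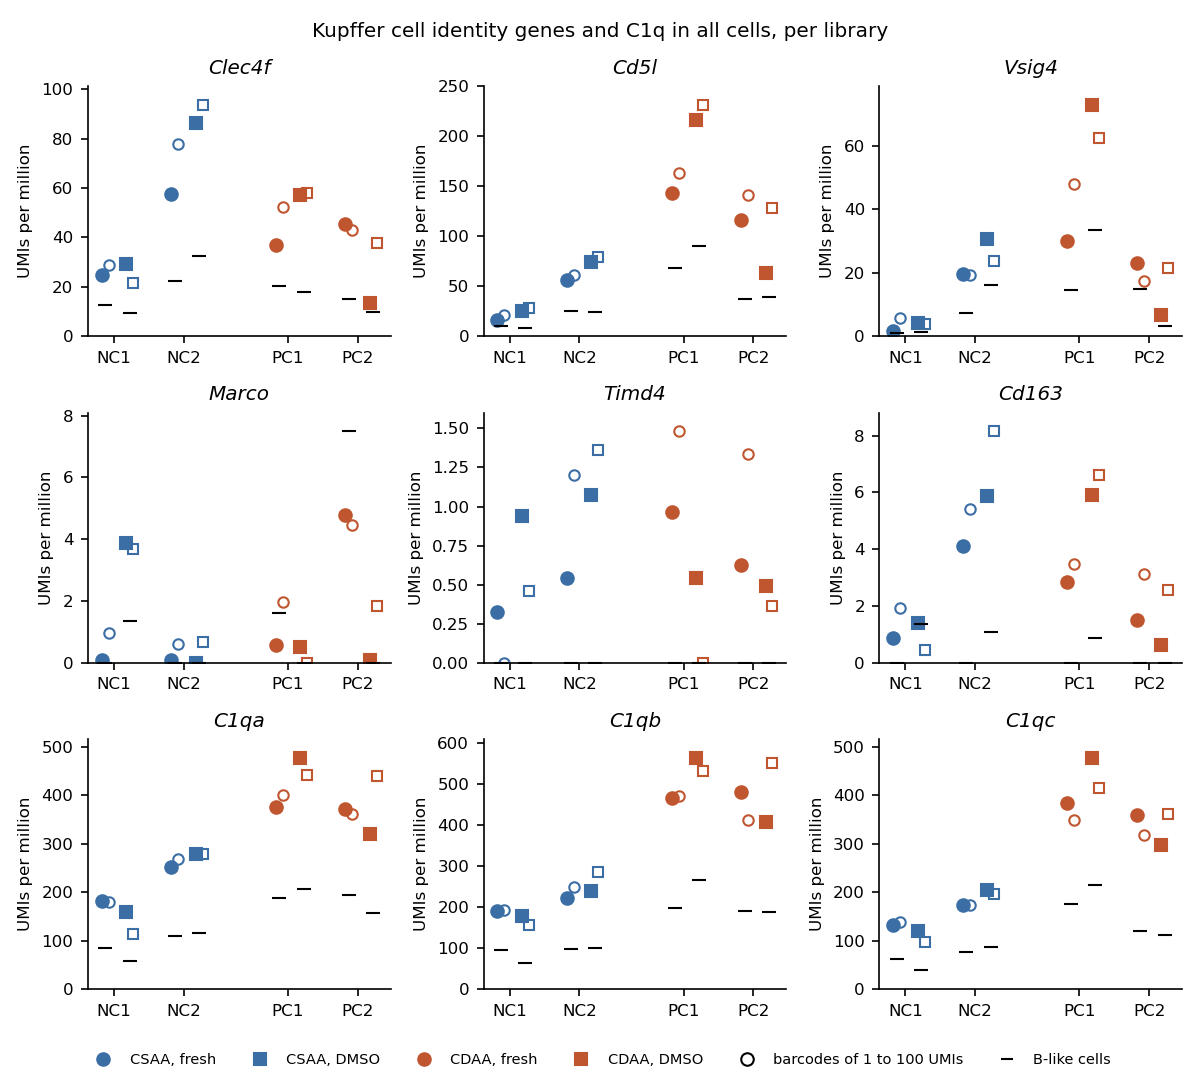
CPM of each gene in all cells (filled symbols), in barcodes with 1 to 100 UMIs of the same library (open symbols) and in B-like cells (dashes), on linear axes from 0. Libraries are grouped by animal, with CSAA animals in blue and CDAA animals in orange; the C1q genes are higher in all 4 CDAA than in all 4 CSAA libraries, in cells and in free RNA alike, and Clec4f is not.

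In whole libraries C1q was higher in CDAA than in CSAA animals. C1qa was at 182 and 252 CPM in NC1 and NC2 fresh and at 376 and 373 in PC1 and PC2 fresh. C1qb was at 190 and 223 in the CSAA and at 468 and 482 in the CDAA fresh libraries, and C1qc at 133 and 173 against 383 and 359. In the DMSO libraries C1qa was at 160 and 279 against 478 and 320, C1qb at 178 and 240 against 565 and 407, and C1qc at 119 and 204 against 477 and 298. No C1q value of a CDAA library overlapped with those of the CSAA libraries. The summed level depends on the number of macrophages, on the transcripts per macrophage and on C1q UMIs counted in other cells, such as free RNA. These cannot be told apart in whole libraries, and the part of each was not tested. Kupffer-like cells held 45.9 to 59.2% of the C1q UMIs of a library.

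C1qb and C1qc were called higher with CDAA in the fresh libraries, 2 of 9 genes tested, while 0.722% of 11772 genes were called higher and 0.994% in either direction. The log2 fold change was 1.22 ± 0.13 for C1qb (adjusted p = 0.0250, edgeR) and 1.30 ± 0.16 for C1qc (adjusted p = 0.0379, edgeR). C1qa had 0.80 ± 0.18 (adjusted p = 0.0964, edgeR) and was not called. Without PC2 fresh none of the 9 genes was called, and 16 of all genes were higher and 7 lower. Without PC1 fresh only Marco was called, among 38 higher and 23 lower of all genes. Without NC1 fresh Cd5l was added, among 245 higher and 125 lower, and without NC2 fresh Cd5l, Vsig4 and all C1q genes were called, among 202 higher and 241 lower. In the DMSO libraries 0 of the 8 genes tested were called, while 0.625% of 11364 genes were. There C1qb had 1.18 ± 0.24 (adjusted p = 0.103, edgeR), C1qc 1.22 ± 0.34 (adjusted p = 0.197, edgeR) and C1qa 0.82 ± 0.33 (adjusted p = 0.323, edgeR). DESeq2 called C1qb in these libraries (147 of all genes higher and 102 lower), and so did edgeR without NC2 DMSO, together with C1qc (121 higher and 145 lower). Without PC2 DMSO none of the 9 was called, and 4 of all genes were higher and 0 lower. In edgeR, 1661 of all genes had an unadjusted p under 0.05, among them C1qa, C1qb and C1qc.

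Scaled per cell, the median of all genes moved by 0.17 in fresh and 0.24 in DMSO libraries, and the calls over all genes went from 85 higher and 32 lower to 215 and 41, and from 51 and 20 to 147 and 15. C1qb and C1qc were called in fresh libraries on this scale too, at 1.41 and 1.49, and none of the 9 genes in DMSO libraries.

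Summed, the identity genes were higher with CDAA in the fresh libraries, at 43.3 and 138 CPM in the CSAA and at 215 and 191 in the CDAA libraries. In the DMSO libraries they overlapped, at 65.0 and 198 against 354 and 84.1 CPM. No identity gene was called. Cd5l was at 15.6 and 55.9 CPM in the CSAA and at 144 and 116 in the CDAA fresh libraries, a log2 difference of 1.87 ± 0.55 (adjusted p = 0.155, edgeR). Clec4f had 0.01 ± 0.38 in fresh and −0.75 ± 0.75 in DMSO libraries, and Cd163 −0.18 ± 0.72 and −0.18 ± 1.02. Vsig4 had 1.34 ± 0.90 and 1.16 ± 1.18, and Timd4 0.88 ± 0.54 and −0.997 ± 0.447 (adjusted p = 0.414 and 0.379, edgeR). NC1 held less Vsig4 and Cd163 than NC2 in both of its libraries. Marco had 4.76 ± 1.26 in the fresh libraries (adjusted p = 0.131, edgeR), where PC2 held 115 UMIs, PC1 13 and the CSAA animals 2 each.

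Whether the change after preservation differs between the diets was tested by an interaction. No gene of the 9 was called for the interaction of diet and preservation, while 0.0329% of 12163 genes were called at an adjusted p under 0.05, and 765 had an unadjusted p under 0.05. Marco had the largest interaction, at −6.85 ± 1.89 on the log2 scale (adjusted p = 0.568, edgeR), and Timd4 had −1.85 ± 0.72 (adjusted p = 0.752, edgeR). The C1q genes lay between −0.05 and 0.06.

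The C1q difference between the diets was also present in C1q UMIs counted outside the Kupffer-like and the unnamed C1q cluster. The cells there had a median of 1 C1q UMI (0 to 153), with at least 10 in 426 cells and at least 20 in 53. The part of these C1q-rich cells in the diet result was not tested. Whether the remaining cells express C1q was not tested either. Outside the Kupffer-like and the unnamed C1q cluster, a choice made after seeing the data, C1qb had a log2 fold change of 1.24 ± 0.11 (adjusted p = 0.0214, edgeR) and C1qc 1.36 ± 0.15 (adjusted p = 0.0272, edgeR) in the fresh libraries. These were 2 of 8 genes tested, while 0.455% of 11643 genes were called higher and 0.558% in either direction. In the DMSO libraries 0 of 7 genes tested were called, while 0.417% of 11259 genes were, and C1qb had 1.37 ± 0.26 (adjusted p = 0.0962, edgeR). Free RNA moved with these values, since barcodes with 1 to 100 UMIs carried C1q at 510 and 692 CPM in the CSAA and at 1223 and 1092 in the CDAA fresh libraries. In the DMSO libraries these barcodes had 370 and 761 against 1389 and 1355. The part of free RNA in the diet result was not tested.

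Within Kupffer-like cells the C1q genes went in the opposite direction in CPM than in whole libraries, and Clec4f was lower with CDAA as well. Clec4f was at 965 CPM in NC1 and 1866 in NC2 but at 343 in PC1 and 364 in PC2 in the fresh libraries, and at 1445 and 2887 against 437 and 133 in the DMSO libraries. All 4 CDAA libraries lay below all 4 CSAA libraries. C1qa was at 5589 and 7164 against 3200 and 2801 in fresh and at 6107 and 8143 against 3264 and 2782 in DMSO libraries, again without overlap. Cd163 was at 28.3 and 169 against 32.0 and 13.9 in fresh libraries, which overlap, and at 79.3 and 244 against 50.8 and 6.84 in DMSO libraries.

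Of the 7 genes tested in fresh Kupffer-like cells, 2 were called lower with CDAA and 0 higher, while 1.99% of 6141 genes were called lower and 3.99% in either direction. Clec4f had a log2 fold change of −2.05 ± 0.28 (adjusted p = 0.00361, edgeR) and C1qa −1.13 ± 0.18 (adjusted p = 0.00824, edgeR). In DMSO Kupffer-like cells 3 of 7 genes were called lower and 0 higher, while 2.56% of 5985 genes were called lower and 4.34% in either direction. Clec4f had −2.96 ± 0.48 (adjusted p = 0.00396, edgeR), C1qa −1.29 ± 0.22 (adjusted p = 0.00467, edgeR) and Cd163 −2.53 ± 0.65 (adjusted p = 0.0483, edgeR). C1qc and C1qb stayed under 2-fold, with −0.72 ± 0.17 and −0.59 ± 0.15 in fresh and −0.92 ± 0.21 and −0.71 ± 0.19 in DMSO cells. Cd5l had −0.06 ± 0.41 in fresh and −0.87 ± 0.43 in DMSO cells, and Vsig4 −0.46 ± 0.71 and −1.04 ± 0.78. Without NC2 fresh, C1qa was no longer called (−0.90) and Vsig4 was called higher (3.00), among 16 higher and 23 lower of all genes. Without PC2 fresh Clec4f and C1qa were again called lower (77 of all genes higher and 87 lower). Without PC1 DMSO all identity genes but Timd4, together with C1qa and C1qc, were called lower, among 183 higher and 220 lower of all genes. Without PC2 DMSO Marco was called lower in addition to Clec4f, Cd163 and C1qa (102 and 141 of all genes). Without NC2 DMSO only Marco was called (31 and 56). Marco was under the count filter in the fit of all DMSO libraries. Its calls in the fits without 1 library rest on NC1 DMSO, with 46 UMIs in 4 Kupffer-like cells. NC2, PC1 and PC2 DMSO held 0, 1 and 0 Marco UMIs in these cells, so these calls were not read as a diet result. The call of Cd163 was lost with DESeq2 (adjusted p = 0.564), with its size factors in edgeR (0.0582) and with centred clustering (0.0568).

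**Figure D4:**
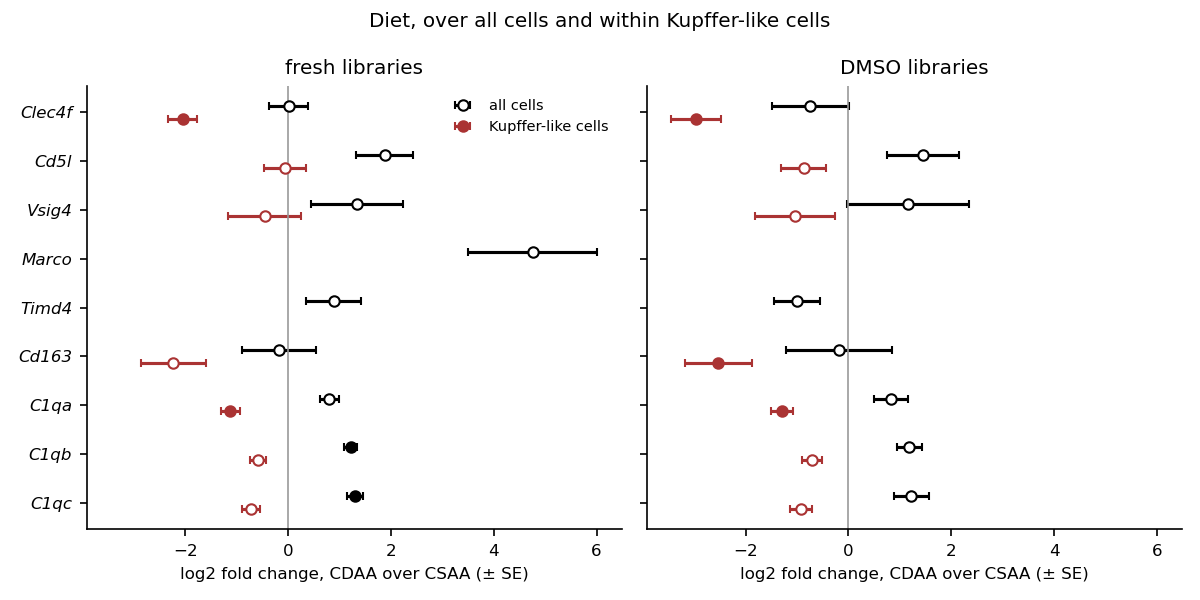
Log2 fold change of CDAA over CSAA (± approximate SE, edgeR) for each gene over all cells (black) and within Kupffer-like cells (red), in fresh (left) and DMSO (right) libraries. Filled symbols are called, and genes under the count filter are not drawn; the C1q genes lie right of 0 over all cells and left of 0 within Kupffer-like cells, from 1.22 to −0.59 for C1qb in fresh libraries.

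The direction within Kupffer-like cells depends on the scale. Per cell instead of in CPM, C1qa amounted to 44.5 and 41.1 UMIs in Kupffer-like cells of NC1 and NC2 fresh and to 44.6 and 46.6 in those of PC1 and PC2 fresh. C1qb amounted to 43.8 and 33.9 UMIs per cell against 57.1 and 61.1, higher with CDAA. Clec4f amounted to 7.68 and 10.7 UMIs per cell against 4.79 and 6.06 in fresh and to 8.86 and 18.7 against 6.49 and 2.13 in DMSO cells, lower with CDAA on both scales. Cd5l amounted to 4.48 and 10.0 against 18.9 and 15.9 in fresh cells.

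When the fit was scaled per cell, chosen after seeing the data, the median of all genes moved by 1.21 in fresh and 1.34 in DMSO Kupffer-like cells, and the calls over all genes went from 123 higher and 122 lower to 3657 and 17 in fresh cells and from 107 and 153 to 3920 and 26 in DMSO cells. C1qa then had a log2 fold change of 0.09 ± 0.37 in fresh and 0.05 ± 0.17 in DMSO cells, C1qb 0.61 ± 0.37 and 0.63 ± 0.15, and C1qc 0.48 ± 0.37 and 0.41 ± 0.16. All of these lie below the shift of the median gene. Clec4f had −0.76 ± 0.42 (adjusted p = 0.0992, edgeR) in fresh and −1.67 ± 0.39 (adjusted p = 0.00193, edgeR) in DMSO cells. Clec4f was thus lower on both scales in direction, and called per cell in DMSO cells only.

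The delimitation of the cells mattered as well. When the unnamed C1q cluster, nearly all of it from CSAA animals, was joined to the Kupffer-like cluster, also chosen after seeing the data, none of the 9 genes was called in fresh or DMSO cells (edgeR), while 233 of all genes were higher and 296 lower in fresh and 116 and 203 in DMSO cells. Clec4f then had −0.90 (adjusted p = 0.158, edgeR) and −1.90 (adjusted p = 0.153, edgeR), and C1qa −0.07 and −0.35. With expression centred per library before clustering, or at a finer resolution, 634 and 639 cells were Kupffer-like, of which 613 and 621 were among the 621.

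**Figure D5:**
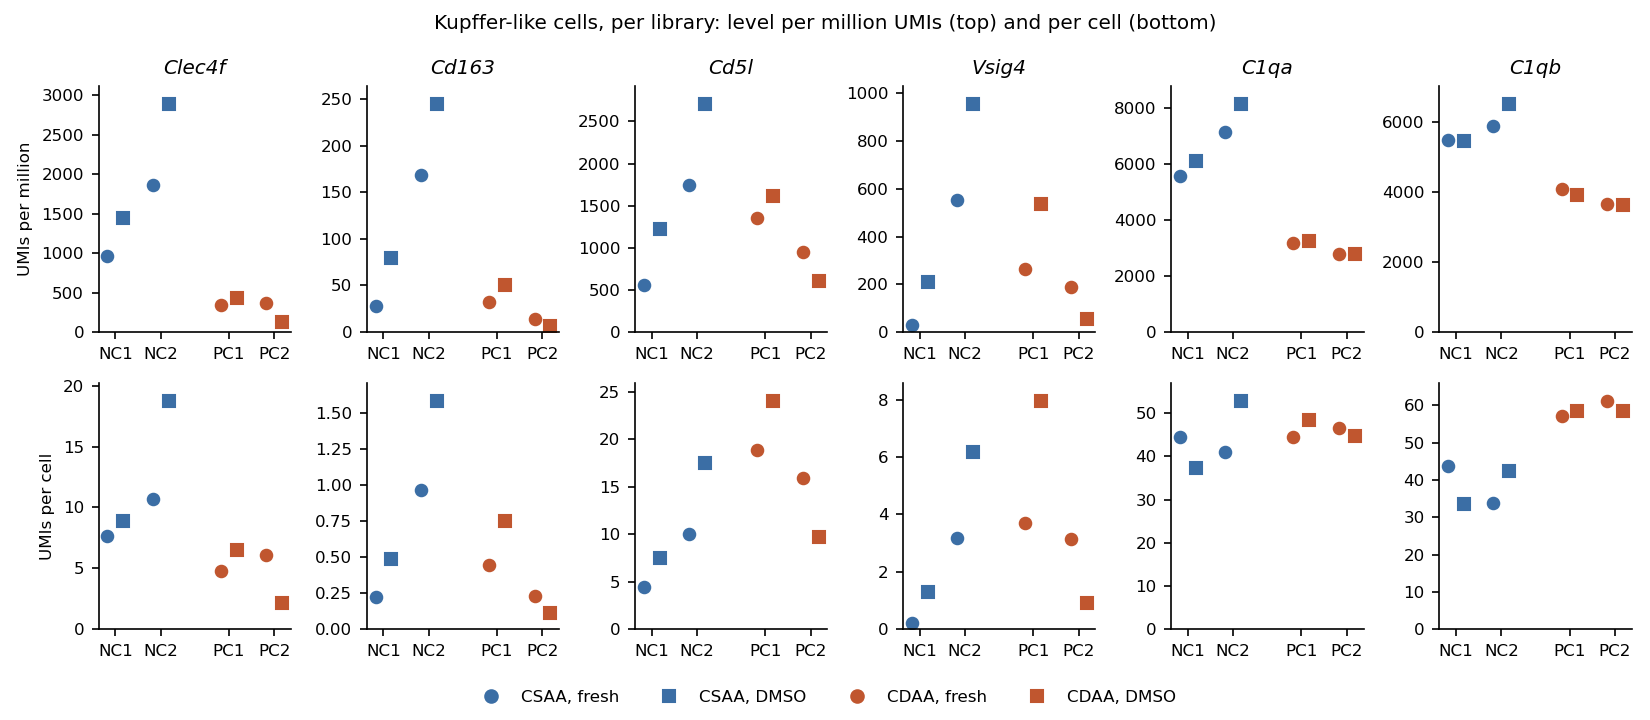
Level of 6 genes in Kupffer-like cells of each library, as CPM (top) and as UMIs per cell (bottom), on linear axes from 0. Circles are fresh and squares DMSO libraries, with CSAA animals in blue and CDAA animals in orange; Clec4f is lower in CDAA animals in both rows, C1qa only in the top row, and C1qb is lower in the top and higher in the bottom row.

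Clec4f positive cells were also a smaller share of the Kupffer-like cells with CDAA. At 2000 UMIs, 67.3% and 68.0% of Kupffer-like cells of NC1 and NC2 fresh carried Clec4f, against 33.9% in PC1 and 22.8% in PC2. In DMSO cells the shares were 77.9% and 83.6% against 35.8% and 14.2%, so the diets did not overlap. C1qa was found in 94.8 to 99.5% of CSAA and 86.3 to 93.5% of CDAA Kupffer-like cells at the same depth. With 2 animals per diet an exact permutation test of these shares cannot fall below 0.05, and none was made. Without thinning, Clec4f was found in 87.5% of the 40 Kupffer-like cells of NC1 fresh (95% exact interval 73.2 to 95.8%) and in 72.7% in NC2 fresh (60.4 to 83.0%). It was found in 57.3% in PC1 fresh (47.2 to 67.0%) and in 49.1% in PC2 fresh (39.5 to 58.7%), so the intervals of NC2 and PC1 fresh overlap. The lowest share was 27.5% of the 91 cells of PC2 DMSO (18.6 to 37.8%). These intervals cover counting error only.

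After preservation C1q in Kupffer-like cells was close to the fresh level in each animal. The C1q sum after preservation was 1.06 and 1.14 times the fresh level for the CSAA and 0.994 and 0.992 times for the CDAA animals. For Clec4f the ratio was between 1.27 and 1.55 in the first 3 animals and 0.364 in PC2. For Vsig4 it was 7.42, 1.72, 2.01 and 0.298, where the first rests on 9 fresh and 45 DMSO UMIs. None of the 7 genes tested was called, while 0.492% of 6713 genes were, and 574 genes had an unadjusted p under 0.05, among them Cd163. Cd163 had a log2 fold change of 0.50 ± 0.22 (adjusted p = 0.483, edgeR). With animal PC2 left out, Vsig4 was called higher in DMSO cells, at 1.10, among 16 higher and 6 lower of all genes. PC2 is again the animal in which Vsig4 fell, and over the 4 fits without 1 animal Vsig4 ran from 0.02 to 1.10.

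Genes of the complement system other than C1q were taken from a list of 35, of which 32 matched 1 gene each. After preservation, 0 of 22 tested genes were called over all cells (0.847% of all genes) and 0 of 15 in Kupffer-like cells (0.492%). In fresh libraries C3, the central component, was higher with CDAA over all cells, 1 of 21 tested against 0.994% of all genes, with a log2 fold change of 1.64 ± 0.14 (adjusted p = 0.0204, edgeR). In DMSO libraries Itgax, a chain of complement receptor 4, was higher (1.17 ± 0.13) and C6, of the terminal complex, lower (−2.62 ± 0.26), 2 of 21 tested against 0.625% of all genes. The medians of the list were 0.75 and 0.41, against −0.02 and −0.03 over all genes tested.

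Within Kupffer-like cells the complement genes went both ways. Itgax and Cd59, an inhibitor of the terminal complex, were higher with CDAA, at 1.76 ± 0.38 and 1.09 ± 0.21 in fresh cells. Cfp (properdin) and Cfd (factor D), both of the alternative pathway, were lower, at −1.43 ± 0.19 and −1.69 ± 0.35. These were 2 higher and 2 lower of 15 tested, while 3.99% of all genes were called. In DMSO cells the same 4 genes were called and C6 was lower as well, at −2.96 ± 0.37, which gave 2 higher and 3 lower of 14 tested, while 4.34% of all genes were called. The medians of the list were 0.20 in fresh and 0.05 in DMSO cells, against 0.00 and 0.01 over all genes.

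Other genes of Kupffer cells and macrophages, 36 listed and 35 matched, were higher with CDAA over all cells where they were called. They were Apoe, Folr2 (folate receptor), Nr1h3 (the sterol sensor LXR alpha), Lgmn (a lysosomal protease) and Csf1r (the receptor for the macrophage growth factor), 5 of 32 tested in fresh libraries, where 0.994% of all genes were called. Apoe was at 31.9 and 12.3 CPM in the CSAA and at 500.3 and 646 in the CDAA fresh libraries, scaled by TMM, a log2 fold change of 4.69 ± 0.47 (adjusted p = 0.0226, edgeR). In DMSO libraries 5 of 32 were called higher, with Hmox1 (heme oxygenase) in place of Csf1r, against 0.625% of all genes. The medians of the list were 0.67 and 0.54, against −0.02 and −0.03 over all genes, and 0 were called lower. After preservation 0 of 32 were called over all cells and 0 of 29 in Kupffer-like cells.

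Within Kupffer-like cells the same list was lower in CPM for most called genes. In fresh cells Apoe (4.97 ± 0.52) and Folr2 (1.77 ± 0.24) were higher and 5 genes lower, of 28 tested, while 3.99% of all genes were called. Among the lower genes were Slc40a1 (−2.39 ± 0.17), Siglec1 (sialoadhesin, −2.24 ± 0.32), Irf7 (an interferon response factor, −2.09 ± 0.23) and Fcgrt (the neonatal Fc receptor, −1.13 ± 0.16). In DMSO cells Apoe and Folr2 were higher and 8 genes lower, of 29 tested, against 4.34% of all genes. Among the lower genes were Slc40a1 (−2.45 ± 0.34), Vcam1 (an adhesion molecule, −2.24 ± 0.44) and Spic, a transcription factor of iron-recycling macrophages (−1.85 ± 0.35). The medians of the list were −0.46 and −0.54, against 0.00 and 0.01 over all genes. Slc40a1, Folr2, Spic and Vcam1 are also among the markers that named the cluster, so their level in these cells is not independent of it. Per cell instead of in CPM, Slc40a1 was again lower and Apoe again higher in both CDAA than in both CSAA libraries, with log2 ratios of −1.19 and 5.96 in fresh and −1.16 and 6.45 in DMSO cells. The other genes of the list were not compared per cell.

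The genes most like C1q and most like Clec4f across the 22 clusters were sought among the genes outside the set, by Pearson r of log2(CPM + 1). They are a description, since clusters share libraries and free RNA. Each cluster counted alike, down to an endothelial-like cluster of 29 cells with 0 Clec4f and 0 Vsig4 UMIs. The part of this small cluster in r was not tested. Most like C1q were Pld3 (r = 0.97), a lysosomal exonuclease, Mertk (0.93), a receptor for the uptake of dying cells, Cndp1 (0.93), Folr2 (0.93) and Rarres1 (0.88). Pld3 was at 292 CPM in Kupffer-like cells and at most at 76.3 in another cluster. Most like Clec4f were the integrin chain Itgb5 (0.86), Trip6 (0.85), Rarres1 (0.84), the heme transporter Slc48a1 (0.81) and Gclc (0.80), of glutathione synthesis. Among the 9 genes, r with the C1q sum was 0.86 for Vsig4, 0.84 for Cd5l and 0.64 for Clec4f. With Clec4f it was 0.85 for Vsig4, close to Itgb5 and Trip6, 0.73 for C1qa and 0.55 for Cd5l.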

How the data were processed

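Rat liver immune cells of 4 animals, fresh and DMSO cryopreserved, gave 8 libraries (Chromium 3′, version 2). Reads were counted by the authors with Cell Ranger 2.1.1, which aligns with STAR, and the deposited values are raw UMI counts for all barcodes. UMIs mark the 3′ end of a transcript.

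Barcodes with at least 500 UMIs were taken as cells. UMIs were summed per library and tested by quasi-likelihood in edgeR 4.0.16 (R 4.3.3) after filterByExpr and TMM, over all genes tested with Benjamini-Hochberg adjustment. The SE of a log2 fold change was approximated as its size divided by the square root of the quasi-likelihood F statistic. Animal was a block for preservation and for the interaction. Fresh and DMSO libraries of 1 animal deviated together from the mean of their preservation state, taken over both diets (r = 0.54 to 0.71). The diet of the animal is part of this deviation, and diet and animal were not separated in it. For diet, 2 against 2 animals were compared, separately in fresh and DMSO libraries. Replicates were different animals. DESeq2 1.42.0 was an alternative.

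Cells were clustered in scanpy 1.11.5 (Leiden, leidenalg 0.10.2) without the 9 genes and without genes called for preservation, with counts scaled to 10000, 2000 variable genes, 20 components, 15 neighbours and a resolution of 0.4. A cluster was named by at least 3 markers of 1 list. Shares were thinned to 500 UMIs per cell, or 2000 in Kupffer-like cells, as the hypergeometric expectation. Cells that carry at least 2 markers of each of 2 lineages were to be left out as doublets in an alternative. This rule marked 2966 to 4259 cells per library, with 597 of the 621 Kupffer-like cells among them, and did not work. Fits and thinning were tested on simulated data.

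The 9 genes, lists and tests were chosen with earlier results of these data known. Named were the 9 genes, of each list the called genes up to 6 per direction (1 called gene is not reported here), and the 5 genes most like C1q and Clec4f over clusters among genes with at least 200 UMIs. Promoters come from RefSeq on GRCr8.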

Additional observations from a re-analysis of the deposited data

Results flagged for a closer look

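Cd93, a member of the complement list that was at first described as a C1q receptor, changed differently after preservation in the 2 diets. The interaction of diet and preservation was 1.34 ± 0.15 on the log2 scale (adjusted p = 0.0460, edgeR). Without the animal as a block, no gene was called for the interaction. Cd93 was the only call among 22 complement genes tested, while 0.0329% of 12163 genes were called. Its level, in CPM scaled by TMM, went from 31.9 to 9.58 in NC1 and from 39.4 to 12.9 in NC2, but from 18.9 to 14.7 in PC1 and from 16.9 to 13.6 in PC2. It was lower after preservation in 4 of 4 animals, by more in both CSAA animals. Cd93 was also a leading gene of an NK-like cluster of 3011 cells, whose number went from 1005 and 1047 cells fresh to 284 and 301 after preservation in NC1 and NC2, and from 89 and 73 to 117 and 95 in PC1 and PC2. The part of this change in the Cd93 result was not tested.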

How the results depend on the processing

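Counts of the 9 genes called stayed within 1.5 times of those reported except as follows. For diet over all cells, leaving out cells that carry markers of 2 lineages left 1 gene in fresh libraries (C1qc), and DESeq2 called 1 in DMSO libraries (C1qb). Leaving out cells of 2 lineages removed 597 of the 621 Kupffer-like cells, so that setting cannot tell whether a result for the 9 genes holds. For preservation in Kupffer-like cells, no filter on low counts gave 1 (Marco). For diet in Kupffer-like cells, resolution 0.2, where the Kupffer-like cluster merged with others to 4342 cells, and joining with the unnamed C1q cluster gave 0 in fresh and in DMSO cells, and scaling per cell gave 1 in each (Cd5l fresh, Clec4f DMSO). Leaving out 1 animal or library gave 0 to 1 for preservation, 0 to 5 and 0 to 2 for diet over all fresh and DMSO cells, and 0 to 1, 2 to 3 and 1 to 7 in Kupffer-like cells; a lone library is assumed to vary like the others. The share of C1q positive cells changed by −1.91 to 0.53 percentage points and that of identity gene positive cells by −0.32 to 1.18 without 1 animal, and the latter by −0.29 without cells of 2 lineages. With a replicate block for diet the counts were 2 and 0 over all cells and 2 and 4 in Kupffer-like cells, fresh and DMSO, but the numbers did not pair animals across diets (r = −0.012 and 0.087). Over all genes, counts moved by more than 1.5 times as follows, each as higher and lower calls. For preservation, from 36 and 67 to 526 and 477 without a fold minimum, 27 and 28 with DESeq2, 8 and 3 without the replicate block and 23 and 12 without cells of 2 lineages. For diet in all fresh cells, from 85 and 32 to 187 and 176 with DESeq2, 179 and 159 without a filter 106 and 95 with a replicate block and 215 and 41 scaled per cell, while without cells of 2 lineages the balance turned to 51 and 71. For diet in all DMSO cells, from 51 and 20 to 147 and 102 with DESeq2, 76 and 55 with the block 147 and 15 scaled per cell and 19 and 19 without cells of 2 lineages. For the interaction, from 3 and 1 to 10 and 2 with DESeq2, 36 and 11 without a filter and 0 without the block. In Kupffer-like cells, for preservation, from 15 and 18 to 56 and 64 without a fold minimum, 12 and 2 with DESeq2 and 28 and 22 at resolution 0.2, and 0 without the block. For diet there, in fresh cells, from 123 and 122 to 284 and 182 without a filter, 69 and 24 at resolution 0.2, 233 and 296 joined with the unnamed C1q cluster 3657 and 17 scaled per cell and 76 and 82 with DESeq2, and in DMSO cells from 107 and 153 to 213 and 200 without a filter, 118 and 52 at resolution 0.2 3920 and 26 scaled per cell and 59 and 114 with DESeq2. Leaving out 1 animal or library, the calls over all genes ran from 19 and 12 (without NC2) to 47 and 156 (without NC1) for preservation, from 16 and 7 (without PC2) to 202 and 241 (without NC2) for diet in all fresh cells, and from 4 and 0 (without PC2) to 215 and 91 (without NC1) for diet in all DMSO cells. In Kupffer-like cells they ran from 14 and 3 (without PC1) to 17 and 30 (without NC1) for preservation, from 14 and 19 (without NC1) to 207 and 199 (without PC1) for diet in fresh cells, and from 31 and 56 (without NC2) to 183 and 220 (without PC1) for diet in DMSO cells. The cause of these changes was not tested.

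Log2 fold changes that turned sign were these. Without cells that carry markers of 2 lineages, the sign turned to Clec4f −0.40, Cd5l −0.28, C1qa −0.0057, C1qb −0.047 and C1qc −0.061 for preservation over all cells, Clec4f −0.34 for diet in all fresh cells. That setting left out 597 of the 621 Kupffer-like cells. Scaled per cell, the sign turned to Clec4f −0.038 and C1qb −0.012 for preservation over all cells, Cd163 0.014 for diet in all fresh cells, Cd163 0.095 for diet in all DMSO cells, C1qb −0.023 for preservation in Kupffer-like cells, Cd5l 1.26, Vsig4 0.96, C1qa 0.092, C1qb 0.61 and C1qc 0.48 for diet in fresh Kupffer-like cells, Cd5l 0.42, Vsig4 0.23, C1qa 0.046, C1qb 0.63 and C1qc 0.41 for diet in DMSO Kupffer-like cells. Outside the C1q clusters, the sign turned to Clec4f −0.11, C1qa −0.073, C1qb −0.068 and C1qc −0.097 for preservation over all cells, Cd163 0.11 for diet in all fresh cells, Cd163 0.28 for diet in all DMSO cells. With a replicate block for diet, the sign turned to Cd163 0.047 for diet in all fresh cells, Cd5l 0.13 and Vsig4 0.045 for diet in fresh Kupffer-like cells. Without the replicate block, the sign turned to Cd163 0.033 for the interaction. At resolution 0.2, the sign turned to Clec4f −0.049, C1qa −0.061, C1qb −0.12 and C1qc −0.064 for preservation in Kupffer-like cells, Cd5l 1.18, Vsig4 0.75, C1qa 0.17, C1qb 0.71 and C1qc 0.59 for diet in fresh Kupffer-like cells, Cd5l 0.65, Vsig4 0.48, C1qa 0.25, C1qb 0.80 and C1qc 0.64 for diet in DMSO Kupffer-like cells. Without a filter on low counts, the sign turned to Cd5l 0.047 for diet in fresh Kupffer-like cells. Joined with the unnamed C1q cluster, the sign turned to Cd5l 1.03, Vsig4 0.40, C1qb 0.37 and C1qc 0.42 for diet in fresh Kupffer-like cells, Cd5l 0.18, C1qb 0.077 and C1qc 0.051 for diet in DMSO Kupffer-like cells. Leaving out 1 animal or library turned signs within these ranges, Clec4f −0.21 to 0.56, Vsig4 −0.10 to 1.11, Marco −2.76 to 1.95, Timd4 −0.033 to 0.73, C1qa −0.041 to 0.17, C1qb −0.035 to 0.16 and C1qc −0.018 to 0.20 for preservation over all cells, Clec4f −0.48 to 0.76 and Cd163 −0.92 to 1.33 for diet in all fresh cells, Clec4f −2.22 to 0.29, Vsig4 −1.502 to 3.30 and Cd163 −2.62 to 1.27 for diet in all DMSO cells, Clec4f −0.12 to 0.54 and C1qb −0.0043 to 0.051 for preservation in Kupffer-like cells, Cd5l −0.66 to 1.04 and Vsig4 −1.35 to 3.00 for diet in fresh Kupffer-like cells, Vsig4 −3.49 to 0.54 for diet in DMSO Kupffer-like cells.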

Other observations

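Kupffer-like cells with and without Clec4f also differed in genes outside the set, which were chosen after their values were seen. In all 4 CDAA libraries, Spp1 (osteopontin), Trem2 and Gpnmb, genes of lipid-associated macrophages, were lower in Clec4f positive than in Clec4f negative Kupffer-like cells, as was Apoe. Spp1 was at 561 to 2350 CPM in Clec4f positive and at 1311 to 2960 in Clec4f negative cells, and Trem2 at 198 to 444 against 448 to 649. In the CSAA libraries Gpnmb was instead higher in Clec4f positive cells in 4 of 4 libraries, with 181 to 271 CPM against 37.8 to 168. This rests on few Clec4f negative cells, 5 and 18 in NC1 and NC2 fresh and 6 and 8 in NC1 and NC2 DMSO. Each of these libraries held only 55 to 68 Gpnmb UMIs in its Kupffer-like cells. Slc40a1 was higher in Clec4f positive cells in the 4 CDAA libraries, with 206 to 343 against 36.5 to 106. The C1q sum was higher in Clec4f positive cells in 3 of 4 CSAA libraries, with the same few negative cells, and in 4 of 4 CDAA libraries.

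Spp1 and Trem2 were nearly undetected in Kupffer-like cells of the CSAA animals. Spp1 had 3 UMIs in NC1 fresh and 0 in the other 3 CSAA libraries, against 1686 to 4347 in the CDAA libraries. Trem2 had 0 to 4 against 452 to 972. Kupffer-like cells held 214491 to 378831 UMIs in the CSAA and 1435389 to 1871062 in the CDAA libraries. In CPM, Spp1 was at 0 to 9.43 against 901 to 2816 and Trem2 at 0 to 12.6 against 315 to 521. Gpnmb was present in both diets, at 176 to 256 CPM against 2395 to 2837.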
